A study of Mus musculus with 40 samples.

Results

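Sporulation genes were followed in 3 bacteria of the mouse cecum, named Acetatifactor, L.bacterium335 and F. rodentium in the deposited tables. Members were the rows whose gene symbol, with any copy number removed, begins with spo0, spoI to spoV, ssp, cot or ger followed by a capital letter or digit, or is sigE, sigF, sigG, sigH or sigK. The rule found 52 of the 18455 features listed over 6 bacterial genomes, namely 25 of 4440 in Acetatifactor, 25 of 4661 in L.bacterium335 and 2 of 2270 in F. rodentium. The rule uses names alone and no measured value. Total RNA of cecal contents was depleted of ribosomal RNA, sequenced and counted per gene of each genome. The mice were C57BL/6, aged 3 weeks at the start, and all of them ate the Total Western Diet, a rodent diet built on human western intakes, for 6 weeks. For 3 further weeks the diet held broccoli powder at 0%, 0.5%, 1% and 2.5%, and each of the 4 groups has 10 libraries. No other genotype or agent is given in the labels, and they do not say whether each library came from a separate mouse, so that p-values measure the spread between libraries.

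A spore of the Firmicutes is made when a starving cell divides unequally and the larger mother cell engulfs the smaller forespore. In Bacillus subtilis, the regulator Spo0A and the sigma factor SigH start the process, SigF and then SigG direct transcription in the forespore, and SigE and then SigK direct it in the mother cell. The late genes build the spore: small acid-soluble proteins (ssp genes) coat its DNA, SpoIVA anchors the coat, SpoVB and SpoVD help to make the peptidoglycan cortex, and ger genes encode proteins by which the spore senses nutrients and germinates. Spore formers are a large part of the anaerobic bacteria of the gut, and spores let strict anaerobes pass between hosts.

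The symbols do not all mean spore formation. Spo0J is a ParB chromosome partition protein, and SpoVG is an RNA-binding regulator, and bacteria that form no spores carry both. The names sigE and sigH are also used for stress sigma factors of other bacteria. By the same rule, the table of Alistipes, a genus of the Bacteroidota that forms no spores, held sigE_1, sigE_2 and spo0J, and that of D. muris held sigH. The tables of Acetatifactor and L.bacterium335 each held spo0A and all 5 sigma factors of the cascade, with sigE in 2 and 3 copies. Among the 2270 features of F. rodentium the rule found gerN and spo0J and neither spo0A nor any of the 5 sigma factors. In F. rodentium the label of sporulation genes thus rests on 2 names. No gene sequence or annotation of these bacteria was used here, so that copies with numbered suffixes, between which reads may have been split, are known by symbol only.

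The libraries held 236483 to 5107249 counts over the 6 genomes (median 825813). Calls are from edgeR's quasi-likelihood test within each genome, at a Benjamini-Hochberg adjusted p under 0.05 over all tested features of that genome. CPM are counts scaled to the same total on the tested features of the genome after TMM scaling. They give a gene's part of the counts assigned to its genome. The labels do not say how reads shared between genomes were counted. Whether counts on a genome include reads of other bacteria was not tested. Levels in CPM are compared between groups for 1 gene and not between genes. Where counts of sspC2 and spoVG are set side by side, no gene lengths were at hand to scale them. In bulk RNA, fewer cells of a bacterium and less RNA per cell cannot be told apart. Of the members, 6 in Acetatifactor, 5 in L.bacterium335 and 2 in F. rodentium passed the low-count filter and were tested. The filter keeps genes by their counts in the groups where they are high, so counts of calls among the tested members describe those genes and not all 52.

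A few libraries stood apart from their group. For L.bacterium335, 2.5% replicate 9 had 79.15% of the genome's counts on the 5 features most counted at 0%, against a group median of 9.11%, and 3 counts on sporulation genes. For Acetatifactor, 2.5% replicate 8 had counts on 2 sporulation genes only, 31 on spoVG_1 and 15 on spoVG_2. For F. rodentium, 2.5% replicates 6 and 9 had too few counts on the genome and were left out, which leaves 8 libraries at 2.5%. No 2 libraries of a group were alike within sampling noise.

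In L.bacterium335, transcripts of sporulation genes were close to undetected without broccoli and present in nearly all libraries of mice fed broccoli. Detection rose over the whole genome too. The median number of its 4661 features detected was 624, 1970, 2770 and 3540 at 0%, 0.5%, 1% and 2.5%. For the 25 sporulation genes it was 1, 9.5, 13.5 and 23. The 25 genes together had 20, 1241, 4075 and 13722 counts in the 0%, 0.5%, 1% and 2.5% groups. Total counts on the genome were 757208, 1049041, 1935713 and 5194973 in the same order, so the depth rose as well. As a part of the genome's counts, sporulation genes took 0 to 0.016% at 0% (median 0.00112%), 0.0535 to 0.159% at 0.5% (median 0.108%), 0.0853 to 0.382% at 1% (median 0.152%) and 0.00295 to 0.325% at 2.5% (median 0.265%). All libraries at 0.5% and 1% lay above all libraries at 0%, and at 2.5% the one within the 0% range was replicate 9. Without it the 2.5% range was 0.198 to 0.325% and the median 0.266%.

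**Figure D1:**
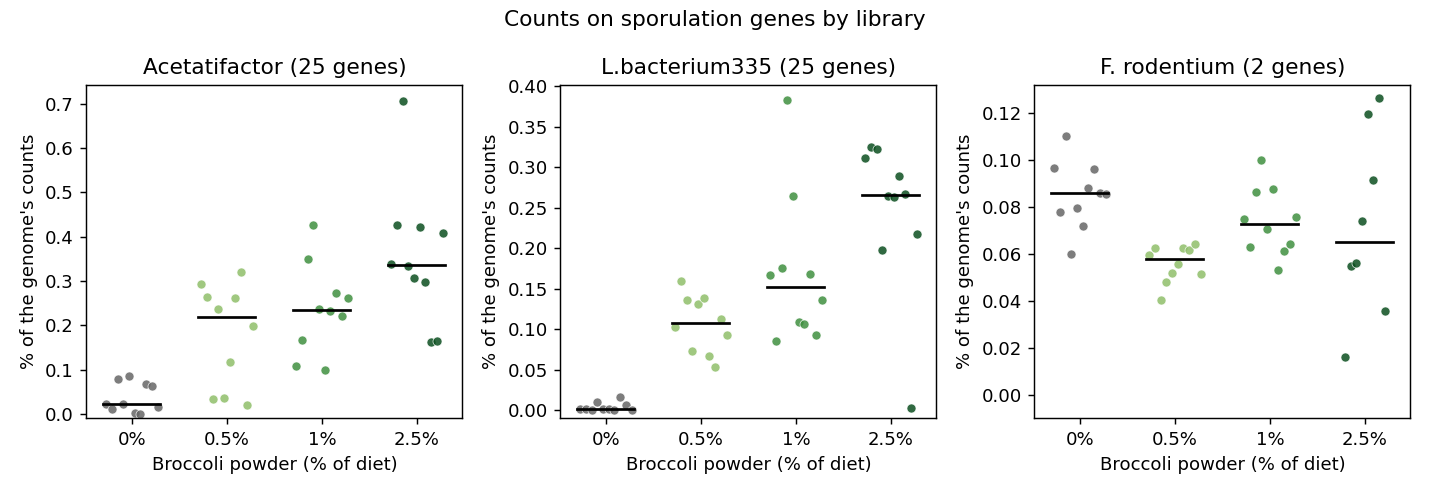
Percent of each genome's counts that fell on its sporulation genes (vertical axis, linear), by broccoli dose (horizontal axis). Each point is 1 library and each line the group median. In L.bacterium335 the medians run 0.00112, 0.108, 0.152 and 0.265% with dose, in Acetatifactor 0.0227, 0.218, 0.235 and 0.336%, and in F. rodentium, with 8 libraries at 2.5%, 0.0859, 0.0577, 0.0727 and 0.0651%.

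The composition of the genome's counts moved with dose too. The 5 features most counted at 0% held a median of 76.3, 47, 38.2 and 9.11% of all L.bacterium335 counts at 0%, 0.5%, 1% and 2.5%. With these 5 features left out of the total, the median share of sporulation genes was 0.00514, 0.209, 0.253 and 0.286% in that order. On this measure the groups given broccoli were closer to each other, and 0% remained far below them.

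All 5 tested L.bacterium335 members rose at 2.5% against 0%, where 77.8% of the 1384 tested features of the genome were called higher. The count of 5 of 5 is therefore read beside a background in which most tested features rose. All 5 were also called higher at 0.5% (background 79.4%) and at 1% (background 78.4%). The median fitted log2 difference of the 5 was 8.27, 8.55 and 8.48 at 0.5%, 1% and 2.5%. Over all tested features it was 7.60, 7.68 and 7.94. By fitted size the 5 thus lay near the typical tested feature of the genome. None of the 5 had a single count in the 10 libraries at 0%, so each fold is a lower bound, set against 3 counts over that group. The same 3 counts allow a share of up to 0.000396% of the genome's 757208 counts at 0%. With 1 fixed reference, the bounds order genes by their own counts, and the true folds may differ in order.

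The largest of these bounds belonged to spoVG, the RNA-binding regulator that bacteria without spores also carry. It had 4554 counts in 9 of 10 libraries at 2.5% against 0 counts at 0%, at least 170-fold higher (edgeR adjusted p = 2.41e-12), and was at least 152-fold and 188-fold higher at 0.5% and 1%. Its level was 0 to 998 CPM (median 528) at 0.5%, 0 to 962 CPM (median 578) at 1% and 0 to 1160 CPM (median 616) at 2.5%. The 3 broccoli groups overlapped over nearly their whole ranges.

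Among the tested members, spoIVA and spoVD_1 are named for genes that act in the mother cell. The coat anchor gene spoIVA had 1548 counts at 2.5% against 0 at 0%, at least 57.9-fold higher (edgeR adjusted p = 6.28e-10). Its median level was 32.4, 102 and 192 CPM at 0.5%, 1% and 2.5%, and its bounds were at least 23.7-fold at 0.5% and 67.8-fold at 1%. The difference in spoIVA between 2.5% and 0.5%, 1.37 ± 0.63 on the log2 scale (SE), had an edgeR adjusted p of 0.18. The gene spoVD_1, named for cortex synthesis, had 1265 counts at 2.5% against 0 at 0%, at least 47.4-fold higher (edgeR adjusted p = 1.53e-09). Its medians of 105, 99.4 and 147 CPM at 0.5%, 1% and 2.5% lay within the spread of each group.

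The chromosome partition gene spo0J had 1314 counts at 2.5% against 0 at 0%, at least 49.2-fold higher (edgeR adjusted p = 2.82e-09). It averaged 159 ± 63.9 CPM at 2.5% and 135 ± 150 CPM at 0.5% (SD, n = 10 each), which did not differ beyond their spread (0.18 ± 0.61 on the log2 scale, edgeR adjusted p = 0.919). The spore protein gene sspC2, whose product belongs to the family of small acid-soluble proteins that bind spore DNA, was at least 17.7-fold higher at 2.5% than at 0% (474 against 0 counts, edgeR adjusted p = 2.79e-05), and at least 47.5-fold and 45-fold higher at 0.5% and 1%. It was the one tested member whose bound was highest at the lowest dose. At 2.5%, replicate 9 had 0 counts on each of these 5 genes. Without that library 6 members passed the filter and all 6 were called at each dose against 0%, the sixth being sigK. The share of all features called in that fit is not given here. In the fit with all libraries, 79.4, 78.4 and 77.8% of tested features were called higher at 0.5%, 1% and 2.5%.

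**Figure D2:**
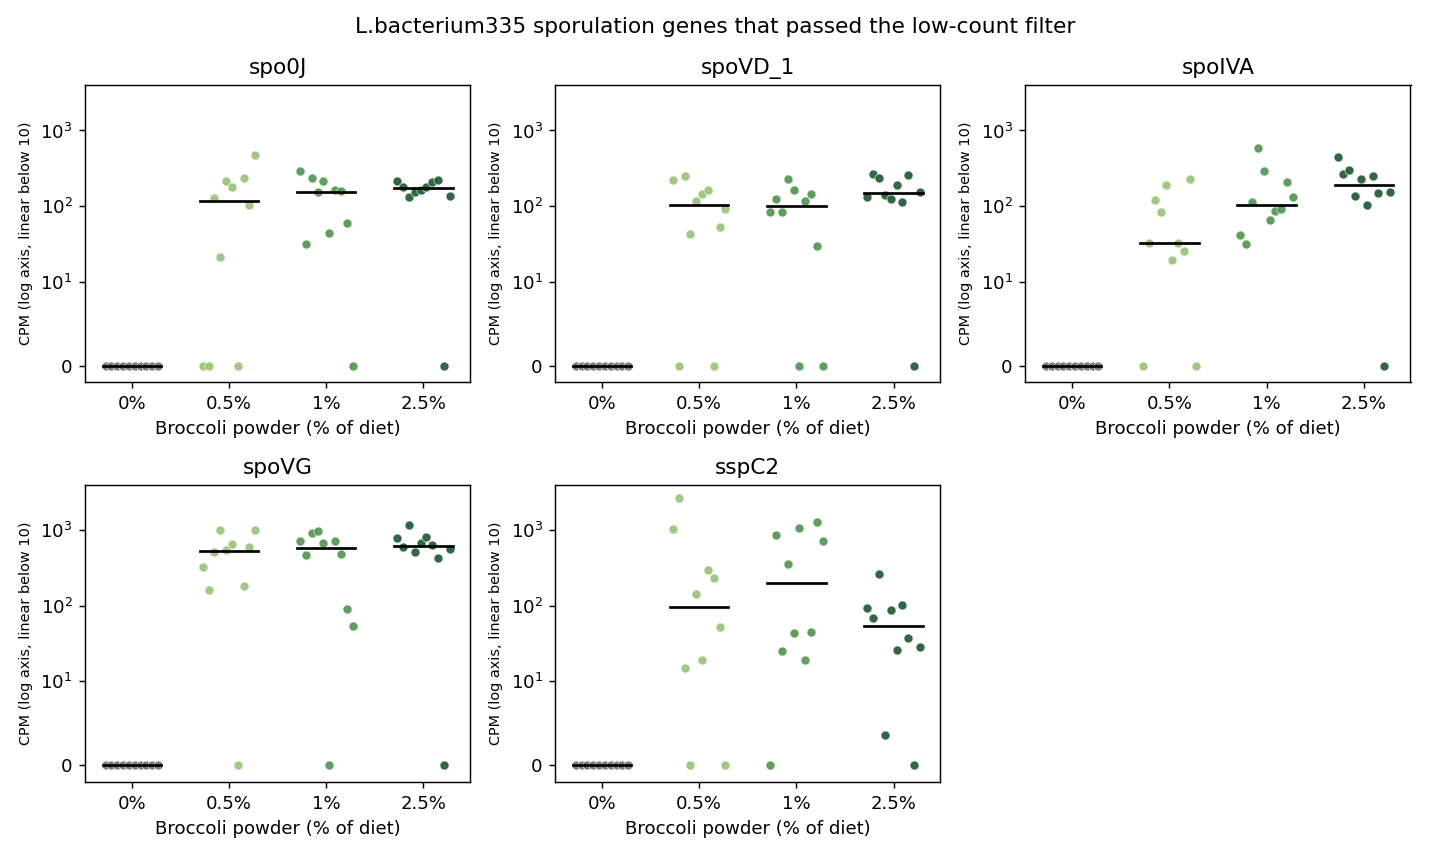
CPM (vertical axis, logarithmic above 10 and linear below) of the 5 tested L.bacterium335 sporulation genes by broccoli dose (horizontal axis); points are the 10 libraries of each group and lines are medians. All libraries at 0% sit at 0, the point at 0 in each 2.5% column is replicate 9, and sspC2 has its lowest median among the broccoli groups, 53.3 CPM, at 2.5%.

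The other 20 members of L.bacterium335 had too few counts for the test, and 18 of them had 0 counts at 0%. The exceptions at 0% were sigE_3 with 19 counts in 6 libraries and sigF with 1 count. Most features of the genome were undetected in a typical 0% library, with a median of 624 of 4661 detected. Of the genes that start sporulation, spo0A had 64, 97 and 480 counts at 0.5%, 1% and 2.5% (detected in 4, 8 and 9 libraries), and was at least 18-fold higher at 2.5% than at 0%. SigH, which works with Spo0A at the start, had 50, 67 and 218 counts for its gene (6, 7 and 9 libraries), at least 8.16-fold higher at 2.5%. Both starting genes were thus seen in all 2.5% libraries but replicate 9. Summed counts also follow the depth on the genome, which rose with dose. In mean CPM spo0A was 49.2, 38.3 and 60.8 and sigH 51.4, 38.7 and 25.5 at 0.5%, 1% and 2.5%.

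The genes of the forespore sigma factors were seen in few libraries below the highest dose. The gene of SigF, the first forespore sigma factor, had 1, 22 and 123 counts at 0.5%, 1% and 2.5% in 1, 2 and 9 libraries, a ratio of 13.8 at 2.5% against 0% (95% counting interval 2.43 to 550). That of SigG, the later forespore factor, had 0, 31 and 84 counts in 0, 2 and 9 libraries, at least 3.14-fold higher at 2.5% than at 0%. The genes around SigF were low throughout: the anti-sigma factor gene spoIIAB had 1, 13 and 19 counts, and the 2 copies of its antagonist, spoIIAA_1 and spoIIAA_2, had 11 and 40 counts at 2.5%. The protease gene spoIVB, by which the forespore signals to the mother cell, had 10, 60 and 328 counts (at least 12.3-fold at 2.5% against 0%). The gene spoVAD, for a protein that carries dipicolinic acid into the spore, had 18, 50 and 232 counts (at least 8.68-fold), and the forespore regulator gene spoVT had 6, 37 and 71 counts (at least 2.66-fold). In mean CPM sigF was 0.485, 3.59 and 17.2, sigG 0, 5.43 and 12.2, and spoIIAB 0.373, 2.48 and 2.14. The means were 7.65, 11.7 and 45.6 for spoIVB, 17.6, 14.9 and 30 for spoVAD and 4.31, 14.2 and 9.12 for spoVT.

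Among the mother cell genes, detection at the lower doses differed from gene to gene. The gene of SigK, the late mother cell factor, had 52, 153 and 504 counts at 0.5%, 1% and 2.5% in 6, 10 and 9 libraries, at least 18.9-fold higher at 2.5% than at 0%. The regulator gene spoIIID, which acts between SigE and SigK, had 15, 174 and 430 counts in 6, 9 and 9 libraries (at least 16.1-fold). By contrast sigE_2 had 1, 65 and 376 counts in 1, 3 and 9 libraries (at least 14.1-fold at 2.5% against 0%), and sigE_1 had 9 counts, all at 2.5%. The third copy, sigE_3, had 19, 11, 32 and 64 counts at 0%, 0.5%, 1% and 2.5%, and it was the one member with counts in 2.5% replicate 9. Scaled to CPM it averaged 11.8 ± 11.5 at 2.5% and 28.6 ± 37.1 at 0% (SD, n = 10 each), a difference that edgeR without the filter did not call (adjusted p = 0.0535). Which copy, if any, is the sporulation factor is not known from the symbol. The coat protein gene cotS had 6, 33 and 295 counts (at least 11-fold) and the second spoVD copy 28, 131 and 522 (at least 19.5-fold). The gene spoVB, also named for the cortex, had 2, 16 and 101 counts (at least 3.78-fold). In mean CPM sigK was 125, 132 and 63.8, spoIIID 25.5, 133 and 61.8, and sigE_2 0.373, 14.1 and 53.9. The means were 2.35, 9.71 and 34.8 for cotS, 22.1, 42.1 and 61.7 for spoVD_2 and 3.06, 4.13 and 13.5 for spoVB.

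The germination genes were gerAA and gerN. The receptor gene gerAA had 17, 57 and 257 counts at 0.5%, 1% and 2.5%, at least 9.62-fold higher at 2.5% than at 0%. The gene gerN, named for a sodium and proton antiporter needed for germination of Bacillus cereus spores, had 30, 162 and 403 counts (at least 15.1-fold). Of the 25 members, 20 had such a lower bound at 2.5%, between 1.5-fold and 170-fold with a median of 14.6. The share of all features with such a bound is not given here. Over all 4661 features of the genome, the median number detected was 624 at 0% and 3540 at 2.5%. With no low-count filter edgeR called 13, 19 and 21 of 25 higher at 0.5%, 1% and 2.5%, where 56, 65.3 and 76.7% of all features were called in either direction. In mean CPM gerAA was 16, 18.8 and 35.8 and gerN 31.7, 56 and 49.9 at these doses.

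Between doses, sspC2 was lower at 2.5% than at 0.5%. It averaged 71.2 ± 77 CPM at 2.5% and 449 ± 848 CPM at 0.5% (SD, n = 10 each), a log2 difference of -2.58 ± 0.82 (edgeR adjusted p = 0.0217), with 0 of 10 libraries at 2.5% above the 0.5% mean. At 2.5% against 0.5%, 12.5% of tested features were called lower and 0.723% higher. The comparison with 1%, added after the values were seen, gave -2.58 ± 0.81 (edgeR adjusted p = 0.0324, 8.24% of features called lower), with 445 ± 500 CPM at 1%. The other 4 tested members did not pass the edgeR test with TMM factors in either comparison. Against 0.5%, spo0J, spoIVA, spoVD_1 and spoVG were all called higher with RLE factors (2.76 to 3.81), with library size over 6 genomes (3.27 to 3.87) and by DESeq2 (2.77 to 3.83), where the median of all features was 2.64, 3.09 and 2.53.

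The sspC2 result rests on few libraries and on the scaling. In single libraries the level was 1046.5, 2690, 14.9, 0, 142.1, 19.4, 295.5, 231.7, 52.2 and 0 CPM at 0.5%, so that replicates 1 and 2 carry most of the mean. At 2.5% it was 93.1, 69.3, 263, 3.6, 89.3, 25.9, 102.2, 37.3, 0 and 28.3 CPM. The TMM factors of 0.5% replicates 1 and 2 were 0.6665 and 0.4, and a factor below 1 raises the CPM. The groups overlap, and 5 libraries at 0.5% lay below 53.3 CPM, the median at 2.5%. Without 0.5% replicate 2 the difference was -1.28 (edgeR adjusted p = 0.451), and without 0.5% replicate 1, 2.5% replicate 6 or 2.5% replicate 9 it was -2.33, -2.55 and -2.41 (edgeR adjusted p = 0.0524, 0.0518 and 0.0589). Against 1%, the call was lost without any 1 of 1% replicates 2, 6, 9 and 10 or of all 2.5% replicates but 3 (edgeR adjusted p up to 0.104). With RLE size factors the value against 0.5% was 0.77 (edgeR adjusted p = 0.437), on a scale where the median of all features was 2.64, so sspC2 stayed 1.87 below that median, as against 2.72 below it with TMM factors. With the genome total as a covariate it was 1.64 above the median (edgeR adjusted p = 0.747).

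Counts without any scaling show the same genes side by side. For each 100 counts on spoVG there were 31.2, 23.9 and 10.4 counts on sspC2 in the summed 0.5%, 1% and 2.5% groups. The share of sporulation counts that fell on sspC2 was 11.6, 8.15 and 3.45% in these sums. Without 0.5% replicate 2, a check added after the values were seen, the 0.5% group had 13.1 counts on sspC2 for each 100 on spoVG and a share of 5.39%, below the 1% group, so the order of 0.5% and 1% rests on that library. Per library it was 0 to 65.6% at 0.5% (median 6.23%), 0 to 67.1% at 1% (median 7.31%) and 0.265 to 8.53% at 2.5% (median 3.23%, 9 libraries with 20 or more such counts). The highest shares were thus in single libraries at the lower doses.

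Singled out after its values were seen, a set of 8 libraries had more counts on sspC2 than on spoVG, 4 of 10 at 0.5%, 4 of 10 at 1% and none at 2.5%. In 0.5% replicate 2, sspC2 had 84 counts, sigK 29, spoIIID 4, spoVG 5 and spo0A 0, of 128 on all members. In 1% replicate 9, sspC2 had 43 counts, sigK 15, spoIIID 3, spoVG 3 and spo0A 0, of 74. In 1% replicate 10, sspC2 had 27 counts, sigK 11, spoIIID 18, spoVG 2 and spo0A 2, of 69. In the other 5 libraries sigK had 0 to 4 counts, and in 0.5% replicates 1 and 7 both sigK and spoIIID had 0. In each of the 8, spo0A had at most 2 counts and sigH at most 3. The 5 features most counted at 0% held 41.55 to 69.79% of the genome's counts in the 8 libraries, and 1328 to 1870 features were detected. The 8 libraries were shallow, with 28103 to 80917 counts on the genome, against 101772 to 814317 at 2.5%. With 71741, 74096 and 70529 counts, 0.5% replicates 9 and 10 and 1% replicate 1 had fewer counts on sspC2 than on spoVG. The part of depth and of these features in the pattern was not tested.

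**Figure D3:**
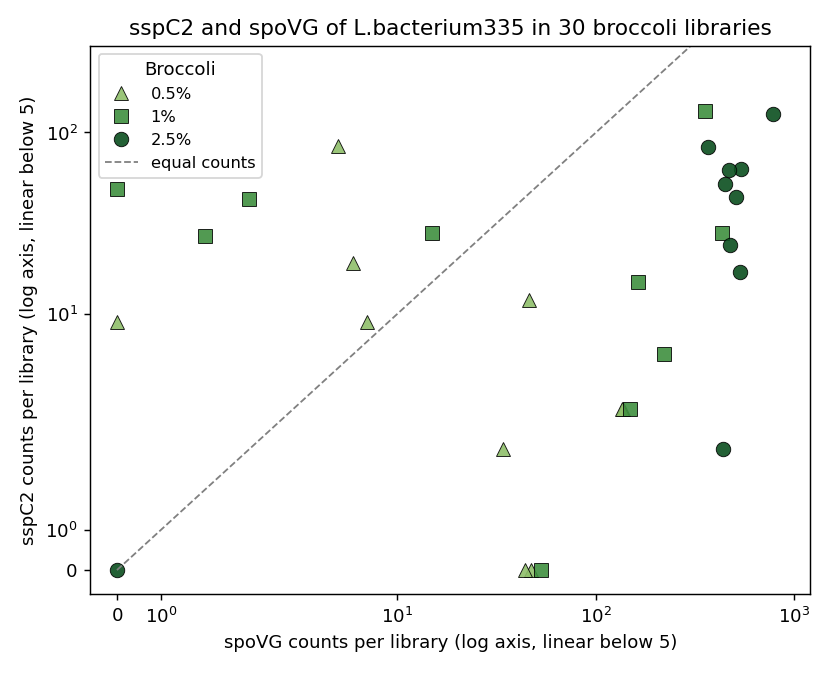
Counts on sspC2 (vertical axis) and on spoVG (horizontal axis) of L.bacterium335, 1 point per library of mice fed broccoli, both axes logarithmic above 5 and linear below. The dashed line marks equal counts: 4 libraries at 0.5% and 4 at 1% lie above it, while 9 of the 2.5% libraries lie below it and the remaining one, replicate 9, sits at 0 on both axes.

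In Acetatifactor, sporulation genes were detected at 0% at a low level and took a larger part of the genome's counts with broccoli. The 25 genes had 125, 832, 2175 and 5239 counts at 0%, 0.5%, 1% and 2.5%, of 365479, 383898, 767857 and 1294765 counts on the genome. Their share was 0 to 0.0858% at 0% (median 0.0227%), 0.0199 to 0.319% at 0.5% (median 0.218%), 0.0989 to 0.426% at 1% (median 0.235%) and 0.161 to 0.707% at 2.5% (median 0.336%). The 0.5% group overlapped the 0% group, and the other broccoli groups did not on this measure. Without 2.5% replicate 8 the range at 2.5% was 0.164 to 0.707% and the median 0.338%. The median number of the 25 genes detected was 2.5, 8, 13.5 and 20 with dose. Over all 4440 features of the genome it was 773, 1480, 2480 and 2870, so detection rose over the whole genome too. The 5 features most counted at 0% held a median of 55.7, 35.3, 25.1 and 11.3% of the counts, and without them in the total the median share of sporulation genes was 0.0551, 0.343, 0.305 and 0.377%. On that total the 1% group overlapped the 0% group too, with 0.157% as its lowest library against 0.172% as the highest at 0%.

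Of the 6 tested members of Acetatifactor 5 rose at 2.5% against 0%, where 54.5% of 773 tested features were called higher. At 0.5% 3 were called (background 21.6%), and at 1% the same 5 genes as at 2.5% (background 49.5%). The median log2 difference of the 6 tested genes was 2.27, 3.43 and 3.49 at 0.5%, 1% and 2.5%, beside medians of 0.95, 1.58 and 1.81 over all tested features. At 2.5%, each of the 5 called genes was above its 0% mean in 9 of 10 libraries, all but replicate 8.

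At 2.5% against 0%, the master regulator gene spo0A had the largest difference of the 6; at 0.5% and 1% spoVG_3 and spoVD_2 had larger ones. At 2.5% its levels were 646.4, 381.4, 1044.8, 600.8, 249.9, 737.9, 592.1, 0, 622.3 and 400.2 CPM. At 0% they were 98.3 CPM in replicate 8, 184 CPM in replicate 9 and 0 in the other 8 libraries. All 2.5% libraries but replicate 8 thus lay above all 0% libraries. The means were 528 ± 286 CPM at 2.5% and 28.3 ± 62.9 CPM at 0% (SD, n = 10 each), a log2 difference of 4.22 ± 0.86 (edgeR adjusted p = 7.74e-05). The difference was 2.43 ± 0.88 at 0.5% against 0% (edgeR adjusted p = 0.0362) and 3.55 ± 0.86 at 1% against 0% (edgeR adjusted p = 0.000967). The call at 0.5% was lost without any 1 of 0% replicates 2, 4, 5, 6, 7 and 10 or 0.5% replicates 2, 4, 8 and 10 (edgeR adjusted p up to 0.0632), and without libraries 76 to 81, whose numbers stand apart in the titles (2.44, edgeR adjusted p = 0.121). With the genome total as a covariate the difference at 2.5% was 2.75 (edgeR adjusted p = 0.051).

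Genes named for cortex synthesis also rose at 2.5% against 0%. Whether each copy serves the spore is not known from the symbol. The transpeptidase gene spoVD_2 averaged 316 ± 165 CPM at 2.5% and 16.3 ± 34.4 CPM at 0% (log2 difference 4.09 ± 0.87, edgeR adjusted p = 0.000129, n = 10 each). Its other copy spoVD_1 averaged 273 ± 169 CPM at 2.5% and 23.4 ± 58.6 CPM at 0% (3.55 ± 0.84, edgeR adjusted p = 0.000401). The gene spoVB_2, of a family of peptidoglycan precursor flippases, averaged 177 ± 123 CPM at 2.5% and 28.5 ± 77.3 CPM at 0% (2.67 ± 0.83, edgeR adjusted p = 0.00421). With the genome total as a covariate spoVD_1 was 1.69 (edgeR adjusted p = 0.209) and spoVB_2 2.14 (edgeR adjusted p = 0.122) at 2.5%, and spoVB_2 lost its call at 1% too (2.03, edgeR adjusted p = 0.0671). In each of the 3 genes the 0% mean came from 2 libraries, and the other 8 were at 0. At 1% against 0% the 3 genes differed by 3.72, 3.31 and 2.32 on the log2 scale and all were called, while at 0.5% spoVD_2 alone was called (3.13 ± 0.90, edgeR adjusted p = 0.0126).

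The 3 copies of spoVG are given one by one. The copy spoVG_3 averaged 738 ± 386 CPM at 2.5% and 67.7 ± 105 CPM at 0% (3.44 ± 0.75, edgeR adjusted p = 0.000168), and it had reached the same size of difference at 0.5% (3.57 ± 0.76, edgeR adjusted p = 0.00195) and 1% (3.56 ± 0.76, edgeR adjusted p = 0.000366). The copy spoVG_1 averaged 288 ± 269 CPM at 2.5% and 231 ± 253 CPM at 0%, a difference of 0.30 ± 0.74 that did not pass the test (edgeR adjusted p = 0.722). With RLE factors and with DESeq2 it was called higher (2.12 and 2.13, adjusted p = 0.0141 and 0.00469), on scales where the median of all features was 3.84 and 3.9, against 1.81 with TMM factors. It was detected in 9 of 10 libraries in both groups. The third copy, spoVG_2, too low for the test, had 29, 80, 69 and 67 counts at 0%, 0.5%, 1% and 2.5%, and averaged 78.3 ± 132 CPM at 2.5% and 122 ± 161 CPM at 0% (SD, n = 10 each). In 2.5% replicate 8 the copies spoVG_1 and spoVG_2 were the only members with counts, and spoVG_3 had 0. The 3 copies held 76.8, 60.2, 38 and 30.7% of all sporulation counts at 0%, 0.5%, 1% and 2.5%. Reads shared between near-identical copies could be divided among them, and this could not be checked from the counts.

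**Figure D4:**
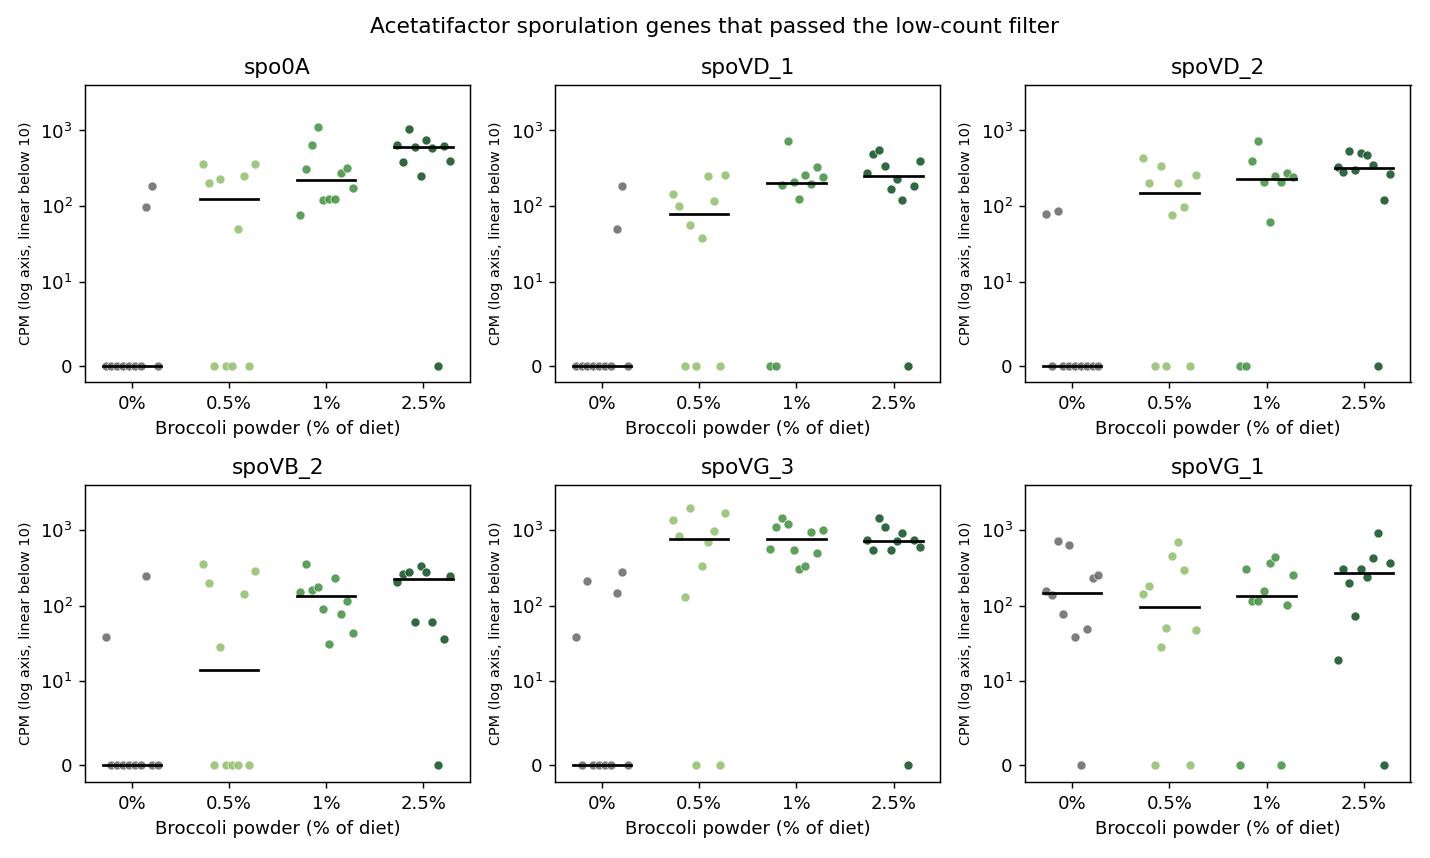
CPM (vertical axis, logarithmic above 10 and linear below) of the 6 tested Acetatifactor sporulation genes by broccoli dose (horizontal axis); points are the 10 libraries of each group and lines are medians. The medians at 0% lie at 0 in all panels but that of spoVG_1, where they run 148, 97.3, 137 and 274 CPM with dose, and the median of spo0A is 0, 125, 224 and 596 CPM.

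The remaining 19 members of Acetatifactor were too low for the test. No count fell on spo0C in any library. Of the sigma factors, sigK had 132 counts at 2.5% against 0 at 0% (at least 7.14-fold higher), sigE_1 72 against 0 (at least 3.9-fold), sigH 64 against 0 (at least 3.46-fold) and sigE_2 54 against 0 (at least 2.92-fold). The forespore factors had counts at 0%: sigG had 140 counts at 2.5% against 2 at 0%, a ratio of 11.4 (95% counting interval 3.09 to 94.7), and sigF 98 against 1, a ratio of 15.9 (2.79 to 635). All 5 factors of the cascade were thus seen at 2.5%, in 7 to 9 libraries except for sigE_2 in 6. These intervals and bounds cover counting error only.

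Structural and germination genes of Acetatifactor showed the same direction in summed counts. The coat anchor gene spoIVA had 242 counts at 2.5% against 0 at 0% (at least 13.1-fold higher) and was seen in 2, 4 and 9 libraries at 0.5%, 1% and 2.5%. The germinant receptor gene gerXA had 129 against 0 (at least 6.98-fold), sspC2 99 against 0 (at least 5.36-fold), spoVB_1 87 against 0 (at least 4.71-fold) and spoVAD 79 against 0 (at least 4.27-fold). The remaining bounds at 2.5% were 3.57-fold for spoVT, 2.27-fold for spoIIAB, 2.11-fold for gerN and 1.19-fold for spoIIAA. The ratio was 3.57 (1.17 to 17.8) for spoIIID and 5.11 (1.36 to 43.1) for spo0J. With no low-count filter, edgeR called 7, 17 and 21 of 24 members higher at 0.5%, 1% and 2.5%, where 20.8, 47.5 and 65.2% of all features were called in either direction.

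Between 2.5% and 0.5%, edgeR called none of the 6 tested members of Acetatifactor (adjusted p 0.0933 to 0.888; 9.18% of all tested features were called). Unadjusted, spo0A and spoVD_1 had p under 0.05, and DESeq2 without the filter called 13 of 24, where it called 47.2% of all features in either direction. The largest difference was that of spo0A, 528 ± 286 CPM at 2.5% and 144 ± 151 CPM at 0.5%. The sspC2 gene of this genome, with 5, 16 and 99 counts at 0.5%, 1% and 2.5%, made up 0.601, 0.736 and 1.89% of the sporulation counts, while that of L.bacterium335 made up 11.6, 8.15 and 3.45%. The value at 0.5% rests on 0.5% replicate 2 in both genomes, since without it the shares were 0% in Acetatifactor and 5.39% in L.bacterium335. The 2 genomes were not tested against each other. The starting genes spo0A and sigH together made up 4.8, 8.77, 15.8 and 17.3% of the summed Acetatifactor sporulation counts at 0%, 0.5%, 1% and 2.5%. The value at 0% is 6 of 125 counts. In L.bacterium335 they made up 9.19, 4.02 and 5.09% at 0.5%, 1% and 2.5%. Single libraries with 20 or more such counts spread widely. In Acetatifactor they held 0 to 19, 0 to 11.2, 7.64 to 21.9 and 0 to 25.9% with dose. In L.bacterium335 they held 0 to 14.8, 0 to 13.6 and 3.07 to 7.57%.

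In F. rodentium, gerN was lower at 0.5% than at 0%, and spo0J passed the test at no dose. This bacterium took a median of 11.5% of each library's counts over the 6 genomes at 2.5%, in the 8 libraries used, against 77.5% at 0%. Levels of gerN were 480, 303.5, 329.6, 310.4, 175.6, 280.8, 398.9, 280.5, 417.3 and 353.6 CPM at 0.5%. They were 702, 711.2, 892, 548.9, 588.9, 522.2, 670.2, 667, 608.3 and 694 CPM at 0%. The highest library at 0.5% lay below the lowest at 0%, so the groups did not overlap.

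The means of gerN were 333 ± 85.1 CPM at 0.5% and 661 ± 105 CPM at 0% (SD, n = 10 each), a log2 difference of -0.99 ± 0.23 (edgeR adjusted p = 0.00446), in a comparison where 4.91% of 1689 tested features were called lower. Leaving out each library in turn gave -1.06 to -0.90, and the call held each time. The decrease was not graded with dose, since the median was 669, 320, 508 and 265 CPM at 0%, 0.5%, 1% and 2.5%. At 1% the mean was 543 ± 163 CPM (edgeR adjusted p = 0.76 against 0%), and at 2.5% it was 419 ± 307 CPM with n = 8 (-0.54 ± 0.25, edgeR adjusted p = 0.153). The 2.5% libraries spread from 93.9 to 870 CPM, and 3 of 8 lay above the 0% mean. Without 2.5% replicate 8, the highest of them, the difference at 2.5% was -0.80 (edgeR adjusted p = 0.0332).

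The chromosome partition gene spo0J averaged 226 ± 165 CPM at 2.5% (n = 8) and 214 ± 37.1 CPM at 0% (n = 10), a log2 difference of 0.02 ± 0.27 (edgeR adjusted p = 0.981). It averaged 239 ± 44.3 CPM at 0.5% and 209 ± 69.4 CPM at 1% (n = 10 each), with adjusted p of 0.79 and 0.991 against 0%. At 1% edgeR called neither gene, with 0 also at an unadjusted p under 0.05 and by DESeq2 (0.474% of all tested features called). At 2.5% edgeR and DESeq2 called neither, and gerN had an unadjusted p under 0.05 (9.41% of features called). Between 2.5% and 0.5%, both tools again called neither, with 0 at an unadjusted p under 0.05 (3.37% of features called).

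**Figure D5:**
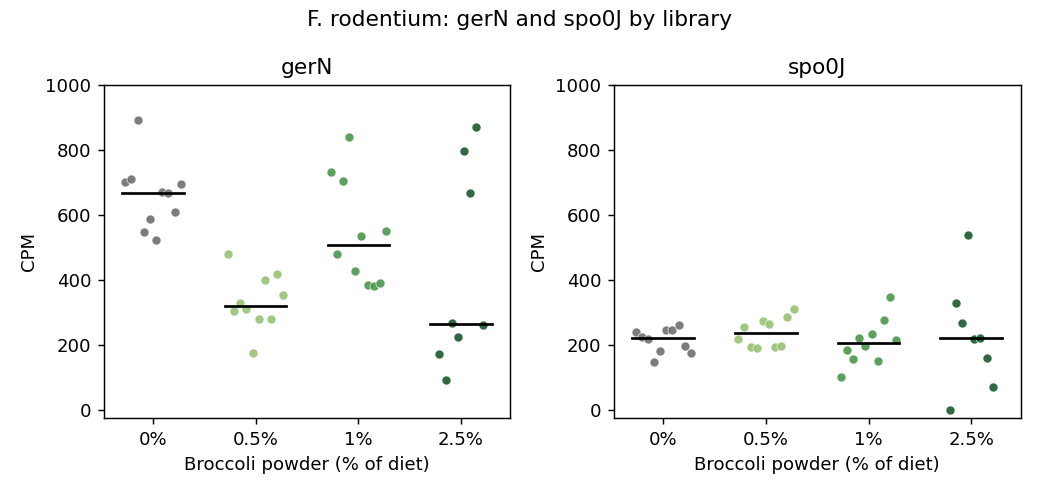
CPM (vertical axis, linear) of gerN and spo0J of F. rodentium by broccoli dose (horizontal axis); points are libraries (10 per group, 8 at 2.5%) and lines are medians. The 0.5% libraries of gerN lie between 176 and 480 CPM, all below the 0% libraries at 522 to 892 CPM, while the medians of spo0J run 221, 237, 206 and 221 CPM with dose.

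Other genes tied to sporulation outside the naming rule were taken from a list of 52 rows in the 3 tables. In Acetatifactor 2 of 4 tested rose at 2.5% against 0%, where 54.5% of all tested features were called higher. The symbol rapA is used for a phosphatase of the phosphorelay to Spo0A in Bacillus subtilis and for an RNA polymerase-associated protein in Escherichia coli. It had 415 counts at 2.5% against 1 at 0%, a ratio of 67.4 (95% counting interval 12 to 2670; edgeR adjusted p = 2.71e-05). The gene prkC, for a kinase that senses peptidoglycan fragments in germinating spores of that species and is found in other Firmicutes too, rose by 2.95 ± 0.79 (edgeR adjusted p = 0.00132). In L.bacterium335 1 of 2 tested rose, soj_3, for a ParA partner of Spo0J, at least 94.7-fold (2530 counts at 2.5% against 0 at 0%). Of all tested features of that genome 77.8% were called higher. In F. rodentium 1 of 3 tested fell, the GTPase gene obg (-0.76 ± 0.23, edgeR adjusted p = 0.0308), whose product is essential for growth in Bacillus subtilis. Of all 1689 tested features of F. rodentium, 68 were called lower.

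Sigma factors outside the cascade, 30 rows in the 3 tables, moved in both directions. In Acetatifactor the housekeeping copy sigA_2 rose by 2.91 ± 0.80 (edgeR adjusted p = 0.00163), while fliA_2, named for the flagellar sigma factor, changed by -2.95 ± 0.77 (edgeR adjusted p = 0.00101) and sigI by -1.97 ± 0.59 (edgeR adjusted p = 0.00339), 3 of 4 tested. Of all tested features of Acetatifactor 77% were called in either direction. In L.bacterium335 both tested genes were called, where 92.8% of all tested features were. The motility factor gene sigD had 1719 counts at 2.5% against 0 at 0%, at least 64.4-fold higher, and rpoD_1 fell by 2.11 ± 0.66 (edgeR adjusted p = 0.00229). In F. rodentium 0 of 3 were called by edgeR, where 9.41% of all tested features were. The sporulation members called in Acetatifactor and L.bacterium335 at 2.5% were all higher than at 0%. Most called features of these genomes were higher too. There were 421 called higher and 174 lower in Acetatifactor, and 1077 higher and 208 lower in L.bacterium335.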

How the data were processed

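Gene counts per library for 6 bacterial genomes were deposited as whole-number counts by the authors; the aligner, the counting program and the reference builds were not stated in the sources at hand. The labels' protocols name the extraction, the ribosomal RNA depletion and the library kit, and no strand setting. From these counts, features of each genome were tested with edgeR 4.0.16 (R 4.3.3; TMM factors within the genome, filterByExpr, quasi-likelihood test, all 4 groups in 1 fit), in libraries with at least 10000 counts on the genome, at a Benjamini-Hochberg adjusted p under 0.05. The script was tested on simulated data. Members and lists were chosen with earlier results of these data known. All 52 members are named, with full statistics for those called; genes of the 2 other lists are named where called. The gene spoVAD was placed with the forespore genes. Floors are 3 counts over a group. Alternatives: DESeq2 1.42.0, RLE factors, other library minimums, no low-count filter, library size over 6 genomes, the genome total as a covariate, and libraries left out. Replicate numbers follow sample order and pair nothing.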

Additional observations from a re-analysis of the deposited data

Results flagged for a closer look

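In 13 of 59 groups of 8 or 10 libraries 1 library lay far from the others by Dixon's criterion. Its rate of about 1 group in 20 by chance holds for normally distributed values. Some of these groups have most libraries at 0, so the 13 cannot be set against that rate. In Acetatifactor at 0%, replicate 9 was highest for spo0A (184 CPM) and spoVD_1 (184 CPM) and replicate 8 for spoVB_2 (246 CPM); most other libraries of the group were at 0. At 1%, replicate 4 was highest for spoVD_1 (716 CPM). At 2.5%, replicate 3 had the highest share of counts on sporulation genes (0.707%), and replicate 8 the highest level of spoVG_1 (929 CPM) with 46 counts on sporulation genes in all. Without replicate 3 the group's mean share was 0.317%.

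In L.bacterium335, 2.5% replicate 9 was lowest both for the share of counts on sporulation genes (0.00295%) and for spo0J (0 CPM). The level of sspC2 was highest in 0.5% replicate 2 (2690 CPM) and, within its own group, in 2.5% replicate 3 (263 CPM). The level of spo0J was highest in 0.5% replicate 10 (476 CPM), and that of spoIVA in 1% replicate 4 (594 CPM). In F. rodentium, gerN was highest in 0% replicate 3 (892 CPM).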

How the results depend on the processing

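Depth limits 39 of the 52 genes, which were too low for the test. Single genes gave 317 values under other settings, leaving out libraries aside: 275 kept direction and call, 15 became called, 11 lost the call and 16 reversed. Where no cause follows from a setting's construction, the cause was not tested.

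Members called in Acetatifactor at 0.5%, 1% and 2.5% against 0% (3, 5 and 5) numbered 7, 17 and 21 with no low-count filter and 7, 15 and 21 with DESeq2, where 24 are tested. In these fits 20.8, 47.5 and 65.2% and 42.9, 59.8 and 74.3% of all features were called in either direction. RLE factors gave 5 at 0.5% (47.9% of all features). Without the 5 features most counted at 0%, 3 members stay tested. Of these 2 were called at 1% and at 2.5%, where 45.1 and 64.8% of all features were called. With the genome total as a covariate 2 were called at 2.5% (16.3% of all features). At 2.5% against 0.5% (0 called) the count was 3 with RLE factors, 6 with library size over 6 genomes, 1 with no filter and 13 with DESeq2 (39.1, 68.7, 4.36 and 47.2% of all features). A minimum of 50000 counts left a group of this genome with no library and was not run.

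In L.bacterium335 (5 called at each dose against 0%) the count was 9 at each dose with a minimum of 50000 counts and without libraries 76 to 81, where 9 are tested. Of all features 80.8, 81.7 and 92.5% were called with that minimum, and 80.8, 84 and 94.1% without those libraries. The count was 13, 19 and 21 with no filter and 13, 17 and 21 with DESeq2 (56, 65.3 and 76.7% and 59.6, 67.3 and 70.2% of all features called). At 2.5% against 0.5% the call of sspC2 gave way to 4 higher calls with RLE factors and with library size over 6 genomes, 5 with no filter and 18 with DESeq2 (80.3, 85.5, 6.79 and 65.9% of all features called in either direction), and to 0 calls with the 50000 minimum, with the covariate and without libraries 76 to 81. At 2.5% against 1% it gave way to 10 higher calls with DESeq2 (49.7% of all features called) and to 0 with RLE factors, library size over 6 genomes, no filter, the covariate and without libraries 76 to 81. The value of sspC2 at 2.5% against 0.5% was 0.77 with RLE factors, 1.02 over 6 genomes, 0.76 with DESeq2 and 0.76 with the covariate; against 1% it was 0.19, 0.048, 0.19 and 0.016. The medians of all features against 0.5% were then 2.64, 3.09, 2.53 and -0.877, so that sspC2 lay below them in all but the covariate fit. With the covariate spo0J was -1.34, spoIVA -0.14, spoVD_1 -0.72 and spoVG -1.32 at 2.5% against 0.5%, and with the 50000 minimum spo0J was -0.10.

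In F. rodentium, library size over 6 genomes gave 0 calls at 0.5% (gerN -0.96, edgeR adjusted p = 0.975). It gave 2 lower at 2.5% against 0% and 2 lower at 2.5% against 0.5%. In these 2 comparisons 89.2 and 96.4% of all features were called, and their median was -2.25 and -2.23. The minimum of 50000 gave 1 higher at 2.5% against 0.5%, where 2.72% of all features were called. The value of spo0J at 2.5% against 0% was then -2.37 over 6 genomes, -0.0014 with no minimum and -0.19 with the 50000 minimum.

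Leaving out each library gave 2 to 5 calls in Acetatifactor at 0.5% (5 without 0% replicate 8 or 0.5% replicate 5), 5 at 1% and 2.5% and 0 at 2.5% against 0.5%. It gave 5 to 6 in L.bacterium335 against 0% and 0 to 1 at 2.5% against 0.5% and against 1%. It gave 1 in F. rodentium at 0.5%, 0 at 1%, 0 to 1 at 2.5% against 0% and 0 at 2.5% against 0.5%; spo0J at 2.5% ranged between -0.22 and 0.15. The shares of all features called in these fits are not given here. With all libraries, 21.6, 49.5 and 54.5% of tested Acetatifactor features were called higher at 0.5%, 1% and 2.5% against 0%. In L.bacterium335 these shares were 79.4, 78.4 and 77.8%. Of F. rodentium features 4.91% were called lower at 0.5%. Some differences at 2.5% against 0% in Acetatifactor grew when a 0% library was left out: spo0A to 5.53 and spoVD_1 to 5.40 without replicate 9, spoVB_2 to 5.10 without replicate 8 and spoVD_2 to 5.08 without replicate 1.

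With the 5 features left out of the total, mean shares were 0.0748% in Acetatifactor at 0%, 0.0128, 0.217 and 0.267% in L.bacterium335 at 0%, 0.5% and 1%, and 0.101 and 0.0649% in F. rodentium at 0% and 0.5%. With no feature left out, the mean share over all 10 libraries of F. rodentium at 2.5% was 0.114%, against 0.0718% over the 8 used; replicate 9 alone had 0.568%. No paired analysis was possible because the labels carry no replicate numbers.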

Other observations

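The same naming rule matched 4 rows in the other tables. In Alistipes, sigE_1, sigE_2 and spo0J had 51, 31 and 23 counts at 2.5% and none at 0% or 0.5%, and sigE_1 and spo0J had 2 and 1 counts at 1%. In D. muris, sigH had 84, 150, 141 and 209 counts at 0%, 0.5%, 1% and 2.5%, in 8, 9, 8 and 9 libraries.

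In L.bacterium335, sigE_3 was the member with most of the counts at 0%, 19 of 20, and all sigE copies are given side by side. At 2.5% sigE_3 had 64 counts, sigE_2 376 and sigE_1 9, while at 0% sigE_3 had 19 and the other copies none.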
